A study of Mus musculus with 12 samples.

Results

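The mitochondrial genome of the mouse was examined in 12 RNA-seq libraries, made from poly(A)+ RNA of 4T1 mammary tumours. Its genes are the rows of the deposited expression table whose symbol starts with mt-, which are 18 of 41009 rows: 13 protein-coding genes, the 2 ribosomal RNAs mt-Rnr1 and mt-Rnr2, and the 3 transfer RNAs mt-Tc, mt-Te and mt-Tp. Of the 18 genes 16 were tested, those with 3 or more libraries at an FPKM of 1 or higher. mt-Tc and mt-Te fell short of that. FPKM is the number of fragments per kilobase of transcript and per 1000000 fragments, so gene length is taken into account. Levels of different genes are still hard to compare. The poly(A) selection favours RNAs with a tail, some genes share sequence with nuclear copies, and transfer RNAs are shorter than a read. The annotation used here (GENCODE M21) lists 37 genes of the mitochondrial genome, 22 of them transfer RNAs, and the other 19 transfer RNAs are not analysed here.

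By the sample labels, the tumours grew from mCherry-4T1 cells, a labelled mouse mammary carcinoma line, placed in the mammary fat pad, in female BALB/c mice aged 4 to 5 weeks. From day 7 on, all mice received an Fc fusion protein intraperitoneally: VHH-OD-PD-1-Fc at 4.3 mg/kg, VHH-PD-1-Fc at 2.6 mg/kg, VHH-OD-Fc at 3.5 mg/kg or Ctrl-Fc (Ctrl below) at 5 mg/kg, with 3 libraries per group. A VHH is a nanobody, the single binding domain of a camelid antibody, PD-1 restrains T cells, and OD is not written out in the labels, although the series title names digoxin-like substances. The design text of the series instead speaks of LLC tumours and doses of digoxin, which no label of the 12 libraries mentions, so the groups follow the sample labels. The labels do not say that libraries of 1 group came from separate animals, so p-values measure only how far these libraries differ from each other, and that spread may be technical.

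Mitochondrial DNA is a small circular genome present in many copies per cell. It is transcribed from both strands into long precursors by a dedicated polymerase, POLRMT, with TFAM and TFB2M. The transfer RNAs between the genes are cut out, which releases the messenger and ribosomal RNAs, and most messengers then receive a short poly(A) tail from MTPAP and are bound by LRPPRC. The messengers encode core subunits of respiratory complexes I, III and IV and of ATP synthase, which is the reason their levels are often read as a measure of respiratory capacity in tumours. mt-Nd6 and the transfer RNAs mt-Tc, mt-Te and mt-Tp lie on the opposite strand from the other genes described here.

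Depth was estimated at 43.6 to 60.9 M reads per library (M, 1000000). The sum of FPKM was 388142 to 401179 in the 6 libraries with the PD-1 arm and 327792 to 345596 in the 6 without it. No batch is labelled. Between these sets of libraries, the PD-1 arm and a batch cannot be told apart. VHH-OD-PD-1-Fc against VHH-PD-1-Fc and VHH-OD-Fc against Ctrl each lie within a set. Replicates of VHH-OD-PD-1-Fc were the closest to each other: over the 16 genes tested, the median SD on the log2 scale was 0.079 in VHH-OD-PD-1-Fc, 0.410 in VHH-PD-1-Fc, 0.155 in VHH-OD-Fc and 0.277 in Ctrl. They were kept as 3 samples, and counts of calls are also given with the 3 taken as 1 sample. All 11 markers of mammary tumour epithelium were above 0 in every library.

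Several of the 18 genes have near-identical copies in the nuclear genome, and the sequences are shown first because they limit what the values of those genes mean. A run of 7 unprocessed pseudogenes on chromosome 1 follows the order of the mitochondrial genes: Gm28439 copies the first 876 bases of mt-Nd4, Gm10222 copies mt-Nd4l, Gm28438 mt-Nd3, Gm28437 mt-Co3, Gm10925 mt-Atp6, Gm28661 mt-Co2, and Gm29216 the last 483 bases of mt-Co1. Identity was 100% over the aligned bases for 5 of the 7, 99.71% for Gm28438 (1 mismatch in 345 bases) and 99.79% for Gm29216 (1 mismatch in 483 bases). The first 60 bases of mt-Nd3 and its copy, read 5′ to 3′ from the GENCODE M21 transcripts, differ only by T3C, with the mitochondrial base first and positions counted from 1 at the 5′ end of the gene. The capital marks that base. Within the aligned bases, a read of mt-Nd3 that does not cover it has the same letters as a read of the copy.
mt-Nd3: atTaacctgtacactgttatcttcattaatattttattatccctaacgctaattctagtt
Gm28438: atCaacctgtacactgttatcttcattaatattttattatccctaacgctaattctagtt
The first 60 bases of mt-Nd4l and its copy, with no difference, show the case in which no read can be assigned by its sequence.
mt-Nd4l: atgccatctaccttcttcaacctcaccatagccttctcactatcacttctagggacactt
Gm10222: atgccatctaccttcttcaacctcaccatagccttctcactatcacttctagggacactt
mt-Cytb shows the contrast. Its closest annotated nuclear match, Gm11410 on chromosome 4, is 92.9% identical over 1142 bases, and bases 2 to 61 hold the 3 differences G14A, C24T and C61T, in capitals.
mt-Cytb: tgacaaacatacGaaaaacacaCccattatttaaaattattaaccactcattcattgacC
Gm11410: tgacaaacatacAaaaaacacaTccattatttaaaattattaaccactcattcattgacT

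The 5 protein-coding genes with no copy of at least 99% identity (mt-Nd1, mt-Nd2, mt-Nd5, mt-Nd6 and mt-Cytb) had mean levels of 264 to 3557 FPKM over the 12 libraries. The 5 that lie inside such a copy over at least 98.99% of their length (mt-Co2, mt-Atp6, mt-Co3, mt-Nd3 and mt-Nd4l) had mean levels of 4.12 to 139 FPKM. mt-Co1, the catalytic subunit of cytochrome c oxidase, averaged 6106 FPKM and was the most abundant row of the table. It lies in the copied run over 31.3% of its length, and mt-Nd4, at 1251 FPKM, over 63.6%. mt-Atp8, at 2.58 FPKM the lowest of the 13, shares 21.1% of its length with mt-Atp6 and its copy, and the rest would fall in a gap of 233 bases of the run that holds no annotated gene. How reads that fit more than 1 place were treated, and whether strand was used, is not given in the sources used here. The levels of mt-Co2, mt-Atp6, mt-Atp8, mt-Co3, mt-Nd3 and mt-Nd4l, and part of those of mt-Co1 and mt-Nd4, are therefore uncertain, and whether shared reads set them low was not tested. mt-Nd6 overlaps mt-Nd5 on the opposite strand by 14 bases. If strand was not used, reads over all of mt-Nd6 cannot be told from those of a transcript of the other strand. The level of mt-Nd6 is therefore uncertain too.

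**Figure D1:**
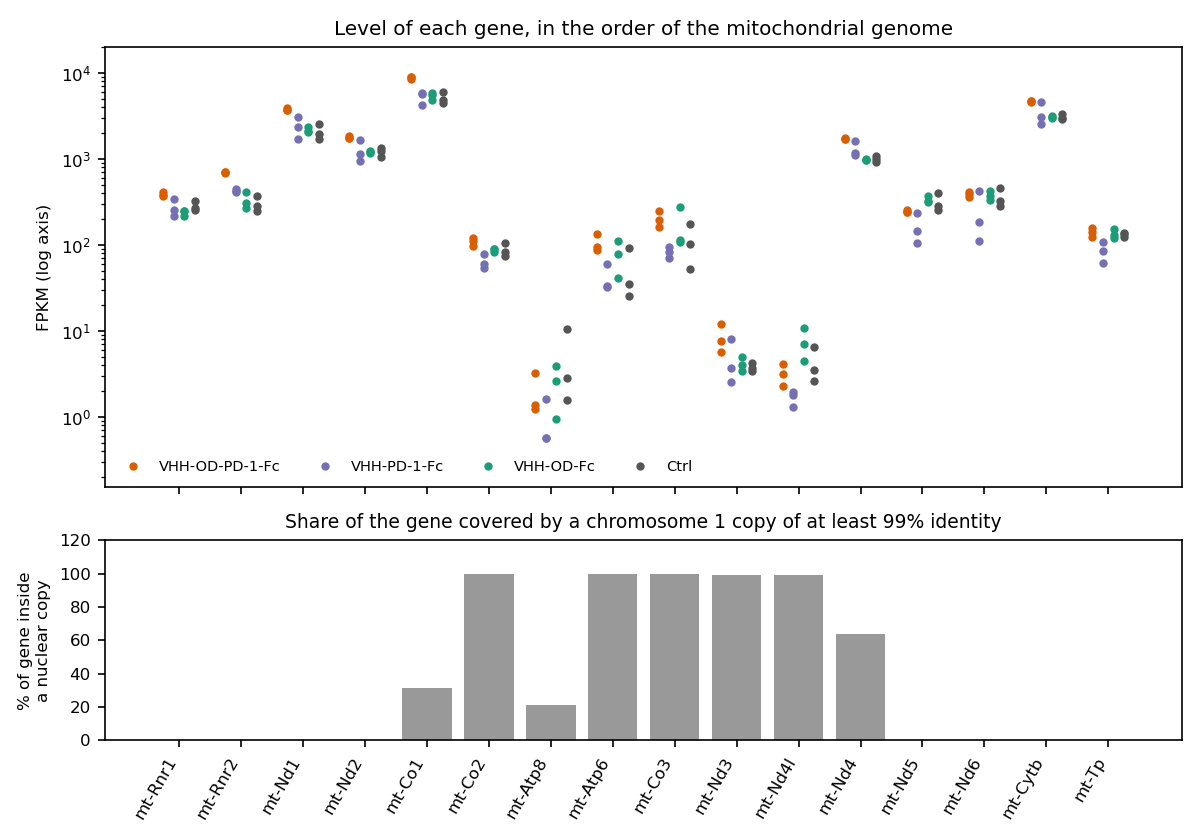
Upper panel: FPKM (log axis) of the 16 genes tested in each of the 12 libraries, 1 point per library, coloured by group, in the order of the mitochondrial genome. Lower panel: percent of each gene's length inside a nuclear copy of at least 99% identity; the 5 genes at or above 98.99% have mean levels of 4.12 to 139 FPKM.

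The mitochondrial rows took a larger share of the table in VHH-OD-PD-1-Fc tumours than in the other groups. They held 5.68, 5.84 and 5.97% of the summed FPKM in VHH-OD-PD-1-Fc libraries, 3.70, 3.04 and 4.73% in VHH-PD-1-Fc libraries, 4.40, 3.96 and 4.64% in VHH-OD-Fc libraries and 3.86, 4.79 and 3.94% in Ctrl libraries. The VHH-OD-PD-1-Fc libraries lay above all 9 others, which overlapped among themselves. As a share of estimated reads VHH-OD-PD-1-Fc was again the highest, with 2.84% to 2.96% in VHH-OD-PD-1-Fc, 1.55% to 2.28% in VHH-PD-1-Fc, 1.72% to 1.91% in VHH-OD-Fc and 1.63% to 2.02% in Ctrl. With 3 libraries against 3, an exact permutation test cannot go below a two-sided p of 0.1, so no p is given for these shares. In bulk tumour RNA, more cells rich in mitochondria, more mitochondria per cell and more transcript per mitochondrion cannot be told apart. Within the mitochondrial rows, complex I genes held 34.0% to 34.7% of mitochondrial FPKM in VHH-OD-PD-1-Fc libraries, 33.1% to 38.2% in VHH-PD-1-Fc libraries, 34.6% to 35.3% in VHH-OD-Fc libraries and 34.5% to 36.1% in Ctrl libraries.

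**Figure D2:**
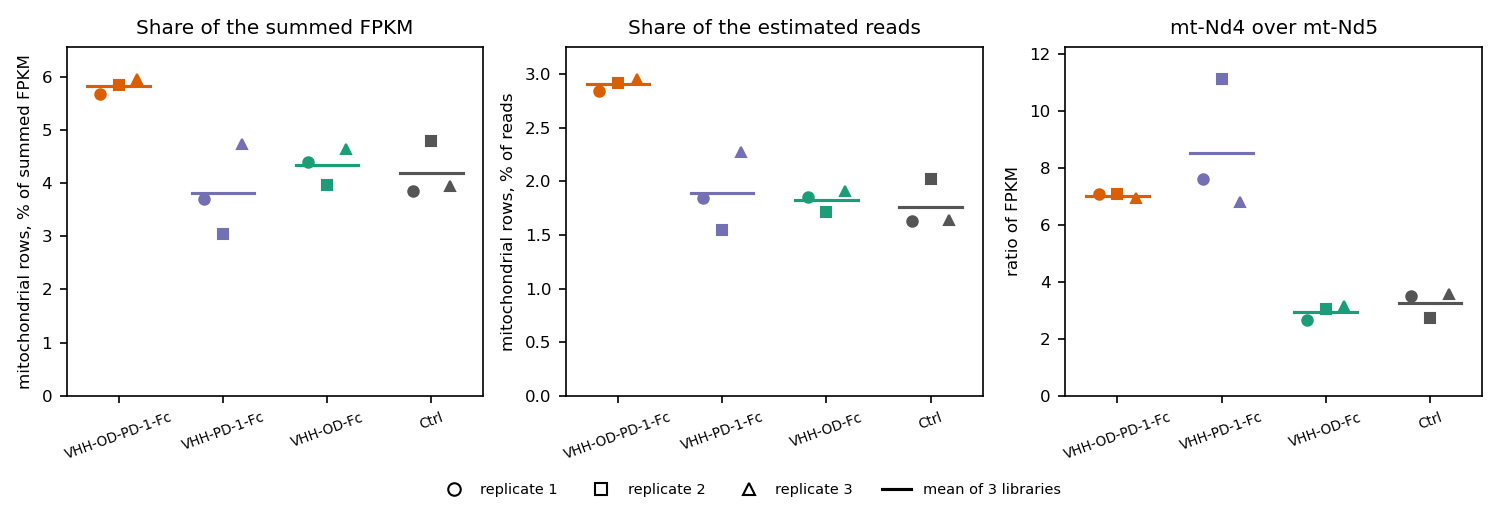
Share of the mitochondrial rows in the summed FPKM (left) and in the estimated reads (middle), in percent, and the ratio of mt-Nd4 to mt-Nd5 FPKM (right), 1 point per library with a line at the mean of 3. The VHH-OD-PD-1-Fc libraries reach 5.68% to 5.97% of summed FPKM, above the 9 others, and the ratio is 6.81 to 11.1 in the 6 libraries with the PD-1 arm and 2.65 to 3.57 in the 6 without it.

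The ribosomal RNAs form the core of the mitochondrial ribosome, which translates the 13 messengers. mt-Rnr2, the large-subunit RNA, was at 683, 705 and 694 FPKM in VHH-OD-PD-1-Fc libraries, 406, 443 and 422 in VHH-PD-1-Fc libraries, 303, 414 and 265 in VHH-OD-Fc libraries and 369.6, 245 and 279 in Ctrl libraries. All VHH-OD-PD-1-Fc libraries exceeded all others, and the VHH-PD-1-Fc libraries exceeded the Ctrl libraries. In limma's fit across all genes, with Benjamini-Hochberg adjustment, the log2 difference from Ctrl was 1.24 (SE 0.17, adjusted p = 0.000403) for VHH-OD-PD-1-Fc and 0.53 (SE 0.17, adjusted p = 0.0262) for VHH-PD-1-Fc. The difference of VHH-OD-PD-1-Fc from VHH-OD-Fc was 1.11 (SE 0.17, adjusted p = 0.000792). mt-Rnr1, the small-subunit RNA, was at 372, 408 and 376 FPKM in VHH-OD-PD-1-Fc libraries, 345, 216 and 252 in VHH-PD-1-Fc libraries, 215, 248 and 247 in VHH-OD-Fc libraries and 327, 251 and 265 in Ctrl libraries. It rose in VHH-OD-PD-1-Fc, by 0.46 (SE 0.16, adjusted p = 0.0385) on the log2 scale against Ctrl and by 0.70 (SE 0.16, adjusted p = 0.00606) against VHH-OD-Fc. The ratio of mt-Rnr2 to mt-Rnr1 was 1.84, 1.73 and 1.85 in VHH-OD-PD-1-Fc libraries, 1.18, 2.05 and 1.68 in VHH-PD-1-Fc libraries, 1.41, 1.67 and 1.07 in VHH-OD-Fc libraries and 1.13, 0.973 and 1.06 in Ctrl libraries.

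Complex I, the NADH dehydrogenase, takes 7 of its subunits from the mitochondrial genome. mt-Nd1 was at 3672, 3735 and 3854 FPKM in VHH-OD-PD-1-Fc libraries, 2347, 1716 and 3078 in VHH-PD-1-Fc libraries, 2107, 2030.4 and 2358 in VHH-OD-Fc libraries and 1700.4, 2549 and 1968 in Ctrl libraries. VHH-OD-PD-1-Fc stood above every other library, and VHH-PD-1-Fc replicate 3 was the nearest to it. The log2 difference of VHH-OD-PD-1-Fc was 0.88 (SE 0.20, adjusted p = 0.00511) from Ctrl and 0.80 (SE 0.20, adjusted p = 0.00884) from VHH-OD-Fc. mt-Nd2 was at 1743, 1753 and 1825 FPKM in VHH-OD-PD-1-Fc libraries, 1142, 939.5 and 1657 in VHH-PD-1-Fc libraries, 1203, 1163 and 1229 in VHH-OD-Fc libraries and 1230.3, 1335 and 1062 in Ctrl libraries. Again replicate 3 of VHH-PD-1-Fc lay close to VHH-OD-PD-1-Fc and its replicates 1 and 2 lay below VHH-OD-Fc. mt-Nd2 rose in VHH-OD-PD-1-Fc by 0.56 (SE 0.17, adjusted p = 0.0226) on the log2 scale against Ctrl and by 0.57 (SE 0.17, adjusted p = 0.0226) against VHH-OD-Fc.

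mt-Nd4, a proton-pumping membrane subunit of complex I, was at 1708, 1719 and 1756 FPKM in VHH-OD-PD-1-Fc libraries, 1103, 1167 and 1612 in VHH-PD-1-Fc libraries, 981, 956 and 1008 in VHH-OD-Fc libraries and 1001, 1087 and 915 in Ctrl libraries. Neither construct with the PD-1 arm overlapped Ctrl. The log2 difference was 0.79 (SE 0.13, adjusted p = 0.00106) for VHH-OD-PD-1-Fc against Ctrl, 0.81 (SE 0.13, adjusted p = 0.000995) for VHH-OD-PD-1-Fc against VHH-OD-Fc and 0.35 (SE 0.13, adjusted p = 0.0463) for VHH-PD-1-Fc against Ctrl. mt-Nd5, another proton-pumping subunit whose gene follows that of mt-Nd4 on the same strand, was at 242, 243 and 253 FPKM in VHH-OD-PD-1-Fc libraries, 145, 105 and 237 in VHH-PD-1-Fc libraries, 369.8, 314 and 322 in VHH-OD-Fc libraries and 286, 398 and 256 in Ctrl libraries. All 6 libraries with the PD-1 arm lay below all 6 without it. mt-Nd5 fell in VHH-PD-1-Fc against Ctrl, with a log2 difference of -1.002 (SE 0.25, adjusted p = 0.00749), while VHH-OD-PD-1-Fc was at -0.32 (SE 0.25, adjusted p = 0.312) against Ctrl and -0.44 (SE 0.25, adjusted p = 0.178) against VHH-OD-Fc. The mt-Nd5 call in VHH-PD-1-Fc held under 26 of 27 alternative settings, but the mt-Nd4 call in VHH-PD-1-Fc under only 9 of 27. The mt-Nd4 difference there was 0.12 after rescaling to TPM and -0.17 after quantile normalization, neither of them called.

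mt-Nd4 and mt-Nd5 can be compared free of scaling, since a ratio within a library does not depend on the library's sum. This pair was chosen after the values were seen, and the ratio is a description. mt-Nd4 over mt-Nd5 was 7.07, 7.08 and 6.93 in VHH-OD-PD-1-Fc libraries, 7.61, 11.1 and 6.81 in VHH-PD-1-Fc libraries, 2.65, 3.05 and 3.14 in VHH-OD-Fc libraries and 3.50, 2.73 and 3.57 in Ctrl libraries. The same split appeared with mt-Cytb, which has no near-identical copy and lies beyond mt-Nd5: its ratio to mt-Nd5 was 18.6 to 19.4 in VHH-OD-PD-1-Fc, 17.4 to 29.6 in VHH-PD-1-Fc, 8.497 to 9.49 in VHH-OD-Fc and 8.33 to 11.5 in Ctrl. Both ratios separate the sets of libraries for which a batch is not labelled. They share mt-Nd5 as the denominator, which alone separates these sets, so the mt-Cytb ratio is not a separate observation.

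mt-Nd6, the complex I gene of the opposite strand, was at 391, 363 and 408 FPKM in VHH-OD-PD-1-Fc libraries, 184, 112 and 424 in VHH-PD-1-Fc libraries, 421, 371 and 332 in VHH-OD-Fc libraries and 320.2, 456 and 282 in Ctrl libraries. The groups overlapped except that VHH-PD-1-Fc replicates 1 and 2 lay below all others, and no comparison passed, with -0.74 (SE 0.37, adjusted p = 0.12) for VHH-PD-1-Fc against Ctrl. mt-Nd3 and mt-Nd4l, small membrane subunits of complex I, rest on 38 to 211 and on 17 to 197 estimated reads per library and may share them with their copies. mt-Nd3 was at 5.68, 7.65 and 11.99 FPKM in VHH-OD-PD-1-Fc libraries, 3.71, 2.50 and 8.01 in VHH-PD-1-Fc libraries, 3.36, 4.01 and 4.91 in VHH-OD-Fc libraries and 3.42, 3.67 and 4.17 in Ctrl libraries, and was called higher in VHH-OD-PD-1-Fc than in Ctrl, with a log2 difference of 0.94 (SE 0.31, adjusted p = 0.0334). mt-Nd4l was at 2.29, 4.11 and 3.13 FPKM in VHH-OD-PD-1-Fc libraries, 1.77, 1.31 and 1.95 in VHH-PD-1-Fc libraries, 7.02, 4.43 and 10.9 in VHH-OD-Fc libraries and 6.47, 3.50 and 2.61 in Ctrl libraries. It was called lower in VHH-PD-1-Fc than in Ctrl, with a log2 difference of -0.89 (SE 0.31, adjusted p = 0.0343), and lower in VHH-OD-PD-1-Fc than in VHH-OD-Fc, with -0.97 (SE 0.31, adjusted p = 0.0286).

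**Figure D3:**
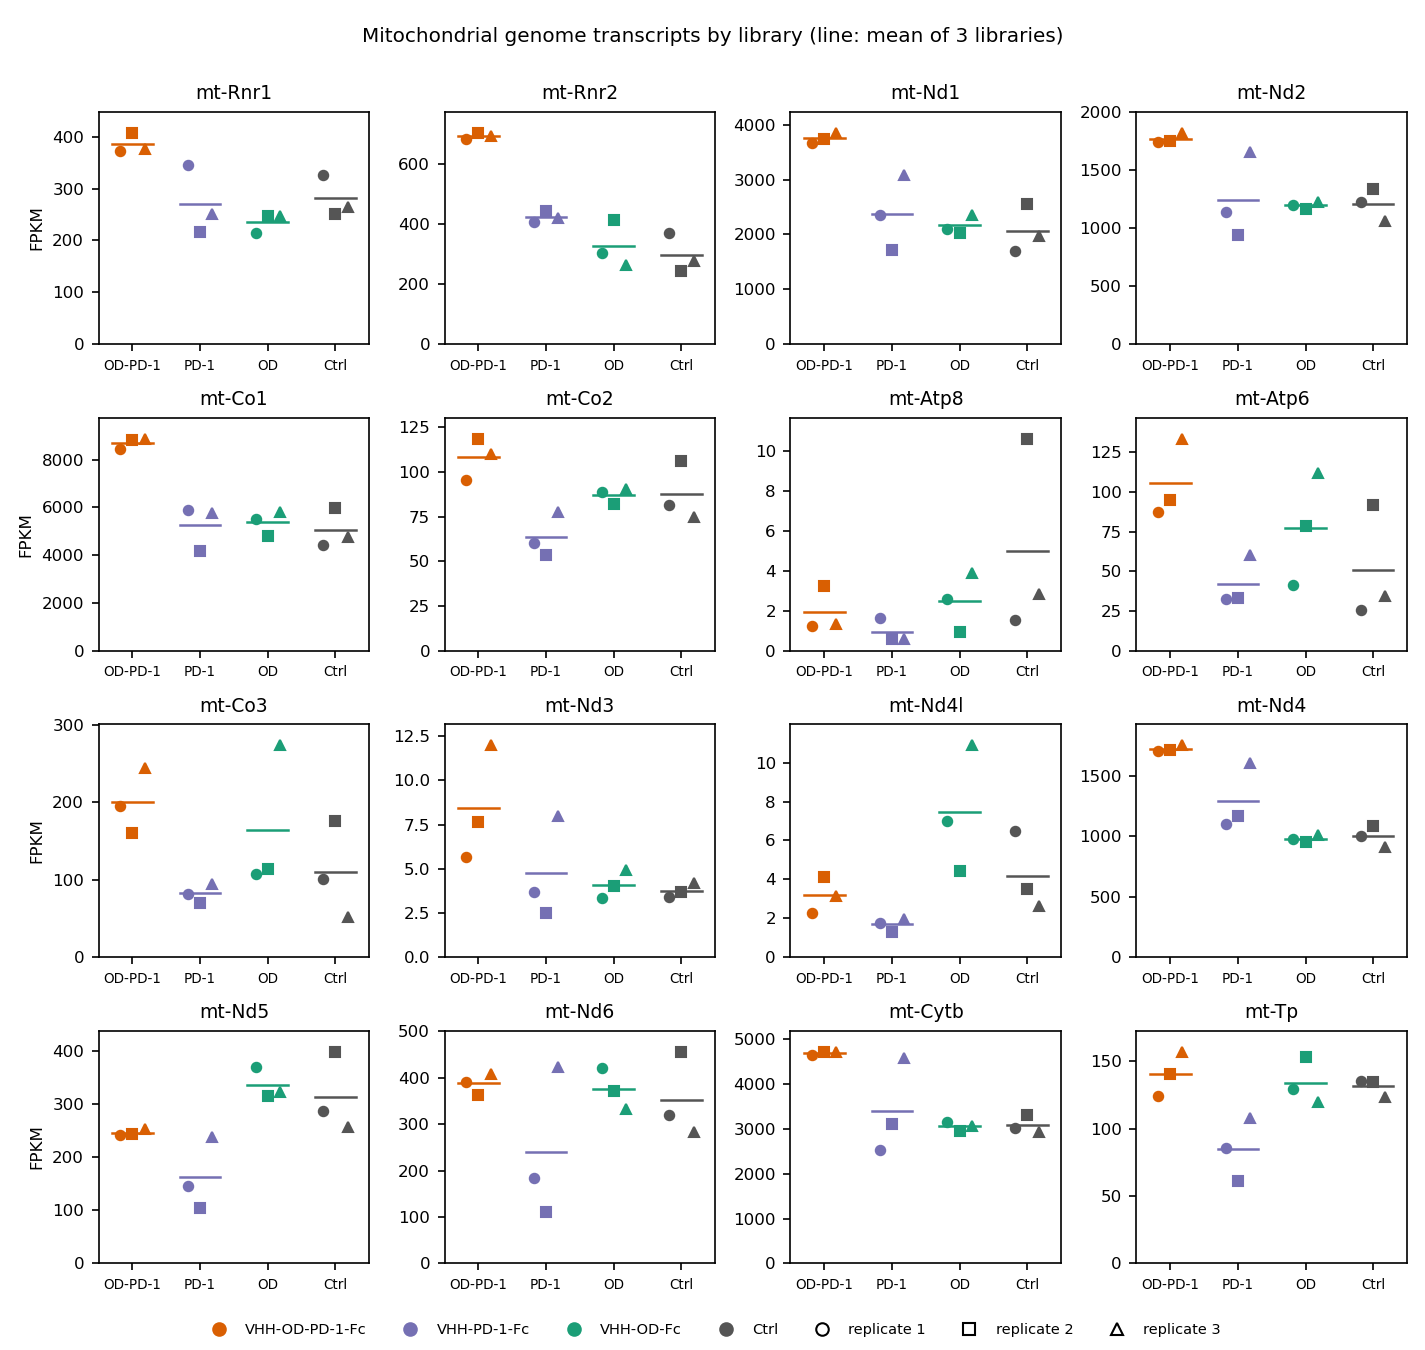
FPKM of the 16 genes tested, 1 panel per gene on a linear axis from 0, 1 point per library with its replicate number as the shape, and a line at the mean of 3 libraries. The VHH-OD-PD-1-Fc points of mt-Co1 (8445 to 8859 FPKM), mt-Rnr2, mt-Nd1, mt-Nd2, mt-Nd4 and mt-Cytb lie above those of the other 3 groups, and the mt-Nd5 points of both groups with the PD-1 arm lie below the others.

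Complex III, which passes electrons to cytochrome c, has cytochrome b, mt-Cytb, as its mitochondrial subunit. mt-Cytb was at 4636, 4714 and 4715 FPKM in VHH-OD-PD-1-Fc libraries, 2519, 3097 and 4587 in VHH-PD-1-Fc libraries, 3142, 2958 and 3052 in VHH-OD-Fc libraries and 3017, 3314 and 2934 in Ctrl libraries. The VHH-OD-PD-1-Fc libraries spanned less than the width of any other group, and VHH-PD-1-Fc replicate 3 lay just below them. mt-Cytb rose in VHH-OD-PD-1-Fc, with a log2 difference of 0.60 (SE 0.17, adjusted p = 0.0163) from Ctrl and 0.62 (SE 0.17, adjusted p = 0.0154) from VHH-OD-Fc.

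Complex IV, cytochrome c oxidase, takes its 3 core subunits from the mitochondrial genome. mt-Co1 was at 8445, 8836 and 8859 FPKM in VHH-OD-PD-1-Fc libraries, 5903, 4181 and 5750.1 in VHH-PD-1-Fc libraries, 5519, 4812 and 5792 in VHH-OD-Fc libraries and 4431, 5972 and 4770.4 in Ctrl libraries. VHH-OD-PD-1-Fc did not overlap the other groups, which overlapped each other. The log2 difference was 0.80 (SE 0.15, adjusted p = 0.00218) from Ctrl and 0.70 (SE 0.15, adjusted p = 0.00469) from VHH-OD-Fc. mt-Co2, the subunit that receives electrons from cytochrome c, was at 95.7, 118 and 110.2 FPKM in VHH-OD-PD-1-Fc libraries, 60.5, 53.3 and 77.8 in VHH-PD-1-Fc libraries, 88.7, 82.1 and 90.3 in VHH-OD-Fc libraries and 81.3, 106 and 74.9 in Ctrl libraries. It was called lower in VHH-PD-1-Fc than in Ctrl, with a log2 difference of -0.45 (SE 0.16, adjusted p = 0.0366), although those groups overlapped. mt-Co3 was at 195, 159.9 and 244 FPKM in VHH-OD-PD-1-Fc libraries, 82.1, 69.4 and 95.01 in VHH-PD-1-Fc libraries, 107, 113 and 274 in VHH-OD-Fc libraries and 101, 176 and 51.9 in Ctrl libraries, and passed in no comparison.

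ATP synthase makes ATP from the proton gradient and has 2 mitochondrial genes, which overlap by 43 bases. mt-Atp6, a part of its proton channel, was at 87.5, 95.1 and 133 FPKM in VHH-OD-PD-1-Fc libraries, 32.3, 32.9 and 60.1 in VHH-PD-1-Fc libraries, 41.1, 78.5 and 112 in VHH-OD-Fc libraries and 25.7, 91.4 and 34.6 in Ctrl libraries. It passed in no comparison, with 1.23 (SE 0.46, adjusted p = 0.0521) for VHH-OD-PD-1-Fc relative to Ctrl, and Ctrl replicate 2 lay among the VHH-OD-PD-1-Fc libraries. mt-Atp8, a small stator subunit, was at 1.21, 3.24 and 1.36 FPKM in VHH-OD-PD-1-Fc libraries, 1.61, 0.562 and 0.569 in VHH-PD-1-Fc libraries, 2.61, 0.949 and 3.86 in VHH-OD-Fc libraries and 1.55, 10.6 and 2.82 in Ctrl libraries. These values rest on 5 to 48 estimated reads in all libraries but Ctrl replicate 2, which had 110.0. mt-Atp8 was called lower in VHH-PD-1-Fc than in Ctrl, with a log2 difference of -1.38 (SE 0.52, adjusted p = 0.0479), and without Ctrl replicate 2 that was -0.75 with an adjusted p of 0.17.

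Among the transfer RNAs, which lack a poly(A) tail of the messenger kind, mt-Tp, the proline transfer RNA, was at 124, 140.5 and 157 FPKM in VHH-OD-PD-1-Fc libraries, 85.2, 61.3 and 108 in VHH-PD-1-Fc libraries, 129, 153 and 119.6 in VHH-OD-Fc libraries and 135, 135 and 124 in Ctrl libraries. The VHH-PD-1-Fc libraries lay below all others, and the log2 difference from Ctrl was -0.66 (SE 0.18, adjusted p = 0.0118). At 67 bases mt-Tp is shorter than a read of 150 bases, and without strand its reads cannot be told from those of a transcript of the other strand. mt-Tc, the cysteine transfer RNA, had 2 estimated reads in VHH-PD-1-Fc replicate 2, 3 in VHH-PD-1-Fc replicate 3 and 0 in the other 10 libraries. mt-Te, the glutamate transfer RNA, had 2 in VHH-PD-1-Fc replicate 3 and 0 in the other 11.

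The comparison of VHH-OD-PD-1-Fc with Ctrl asked what both arms together did. Of the 16 genes 8 rose and none fell: mt-Rnr1, mt-Rnr2, mt-Nd1, mt-Nd2, mt-Nd3, mt-Nd4, mt-Co1 and mt-Cytb. Over all 14306 genes tested 15.1% rose, 27.1% fell and 42.2% were called in this comparison, so the share called among the 16 was near that of the whole table. An unadjusted p under 0.05 was reached by 10 of 16, against 51.2% of all genes. The median log2 difference of the 13 protein-coding genes was 0.60, against -0.14 over all genes. Rescaling each library to the same sum moved the median of all genes to -0.37 and that of the 13 genes to 0.37 and left 4 calls, so relative to all genes the 13 stood 0.74 higher as deposited, 0.75 higher after rescaling and 0.17 higher after quantile normalization, which gives all libraries the same distribution of values. Quantile normalization shows a difference only where a row changes rank, since each rank gets 1 value in all libraries. mt-Co1, mt-Cytb and mt-Nd1 ranked 1, 7 and 10 by mean FPKM, so they had little room to rise in rank. mt-Rnr2 was called under all 27 alternative settings, mt-Nd1, mt-Co1 and mt-Nd4 under 25, and the other 4 under 16 to 20. With VHH-OD-PD-1-Fc taken as 1 sample, 1 call remained (mt-Rnr2), where 9.17% of all genes were called, and without Ctrl replicate 3 there were 4 calls, where 32.7% of all genes were called.

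Against VHH-OD-Fc, which asked what the PD-1 arm added to the OD arm, 7 of 16 genes rose in VHH-OD-PD-1-Fc and 1 fell, against 15.4% of all genes that rose, 24.5% that fell and 39.9% called in either direction. The 7 were the ribosomal RNAs, mt-Nd1, mt-Nd2, mt-Co1, mt-Nd4 and mt-Cytb, and the 1 that fell was mt-Nd4l. The median log2 difference of the 13 protein-coding genes was 0.53, against -0.11 over all genes. With VHH-OD-PD-1-Fc taken as 1 sample, the count was 1, where 7.57% of all genes were called. This comparison and that with Ctrl share the VHH-OD-PD-1-Fc libraries and both cross the sets of libraries with and without the PD-1 arm.

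VHH-OD-PD-1-Fc against VHH-PD-1-Fc, which asked what the OD arm added, stays within the libraries with the PD-1 arm. None of the 16 genes passed limma's test, against 0.839% of all genes, while 14 of 16 had an unadjusted p under 0.05, against 15.5% of all genes, and all 16 log2 differences were positive. The largest belonged to mt-Atp6, at 1.35 (SE 0.46, adjusted p = 0.193), and mt-Co3, at 1.26 (SE 0.43, adjusted p = 0.189), and the smallest adjusted p to mt-Co1, at 0.74 (SE 0.15, adjusted p = 0.0545), and mt-Co2, at 0.76 (SE 0.16, adjusted p = 0.0552). mt-Rnr2 was at 0.71 (SE 0.17, adjusted p = 0.0844), mt-Tp at 0.75 (SE 0.18, adjusted p = 0.0827), mt-Nd1 at 0.70 (SE 0.20, adjusted p = 0.125) and mt-Nd5 at 0.68 (SE 0.25, adjusted p = 0.215). The genes are released from long precursors that several of them share, so the 16 are not separate observations. The SE and p rest on 1 spread per gene for all groups. Over the 16 genes, the median SD on the log2 scale was 0.410 in VHH-PD-1-Fc and 0.079 in VHH-OD-PD-1-Fc. The median of the 13 protein-coding genes was 0.70, against 0.04 over all genes. That median was positive under all 27 alternatives (0.48 to 0.90). Several of these, such as leaving out a library of VHH-OD-Fc or Ctrl, could not move it. The count turned on VHH-PD-1-Fc replicate 3. Over the 16 genes, its median distance from the Ctrl mean was 0.25 log2 units, against -0.27 and -0.41 in replicates 1 and 2. Leaving out this highest library of its group widens the difference, so the calls gained that way are a description only. The median of the 13 genes was 0.90 without replicate 3, 0.71 without replicate 1 and 0.48 without replicate 2. Without replicate 3, 10 of 16 genes were called. The calls over all genes also grew in number, to 538 (3.76%) against 120 with that library. Among the 10 were mt-Co1 at 0.81 with an adjusted p of 0.0342 and mt-Cytb at 0.75 with an adjusted p of 0.00988.

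The PD-1 arm on its own was examined by setting VHH-PD-1-Fc against Ctrl. Of the 16 genes 2 rose (mt-Rnr2 and mt-Nd4) and 5 fell (mt-Nd5, mt-Tp, mt-Nd4l, mt-Co2 and mt-Atp8). Over all genes 14.6% rose, 32.3% fell and 46.9% were called, so the share called among the 16 was near that of the whole table. The median of the 13 protein-coding genes was -0.12 and that of all genes -0.19, and the median of the 13 turned positive under 6 of 27 alternatives, up to 0.15 without Ctrl replicate 2. mt-Nd5 and mt-Tp kept their calls under 26 and 25 of 27 alternatives, mt-Rnr2 under 17 of 27, and the other 4 genes under 9 to 15 of 26 or 27. Single libraries differed widely: over the 16 genes, the median distance from the Ctrl mean was -0.27, -0.41 and 0.25 log2 units in VHH-PD-1-Fc replicates 1, 2 and 3.

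The OD arm on its own was examined by setting VHH-OD-Fc against Ctrl. None of the 16 genes passed limma's test, as was the case for 0.0% of all genes, and 1 (mt-Nd4l) had an unadjusted p under 0.05, against 3.14% of all genes. mt-Nd4l had a log2 difference of 0.70 (SE 0.31), mt-Co1 of 0.10 (SE 0.15), mt-Cytb of -0.02 (SE 0.17) and mt-Nd5 of 0.12 (SE 0.25). The median of the 13 protein-coding genes was 0.09, against -0.02 over all genes. The difference from additivity takes the log2 difference of VHH-OD-PD-1-Fc from Ctrl and subtracts those of VHH-OD-Fc and VHH-PD-1-Fc. None of the 16 genes passed limma's test for it, against 0.112% of all genes, 8 had an unadjusted p under 0.05, against 11.9% of all genes, and 15 of 16 were positive, with a median of 0.64 for the 13 protein-coding genes and 0.06 for all genes. mt-Rnr1 was at 0.77 (SE 0.23, adjusted p = 0.231), mt-Co2 at 0.75 (SE 0.22, adjusted p = 0.234) and mt-Co1 at 0.64 (SE 0.21, adjusted p = 0.274). The constructs were given at different doses, which this sum does not take into account. Here too the 16 genes are not separate observations.

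**Figure D4:**
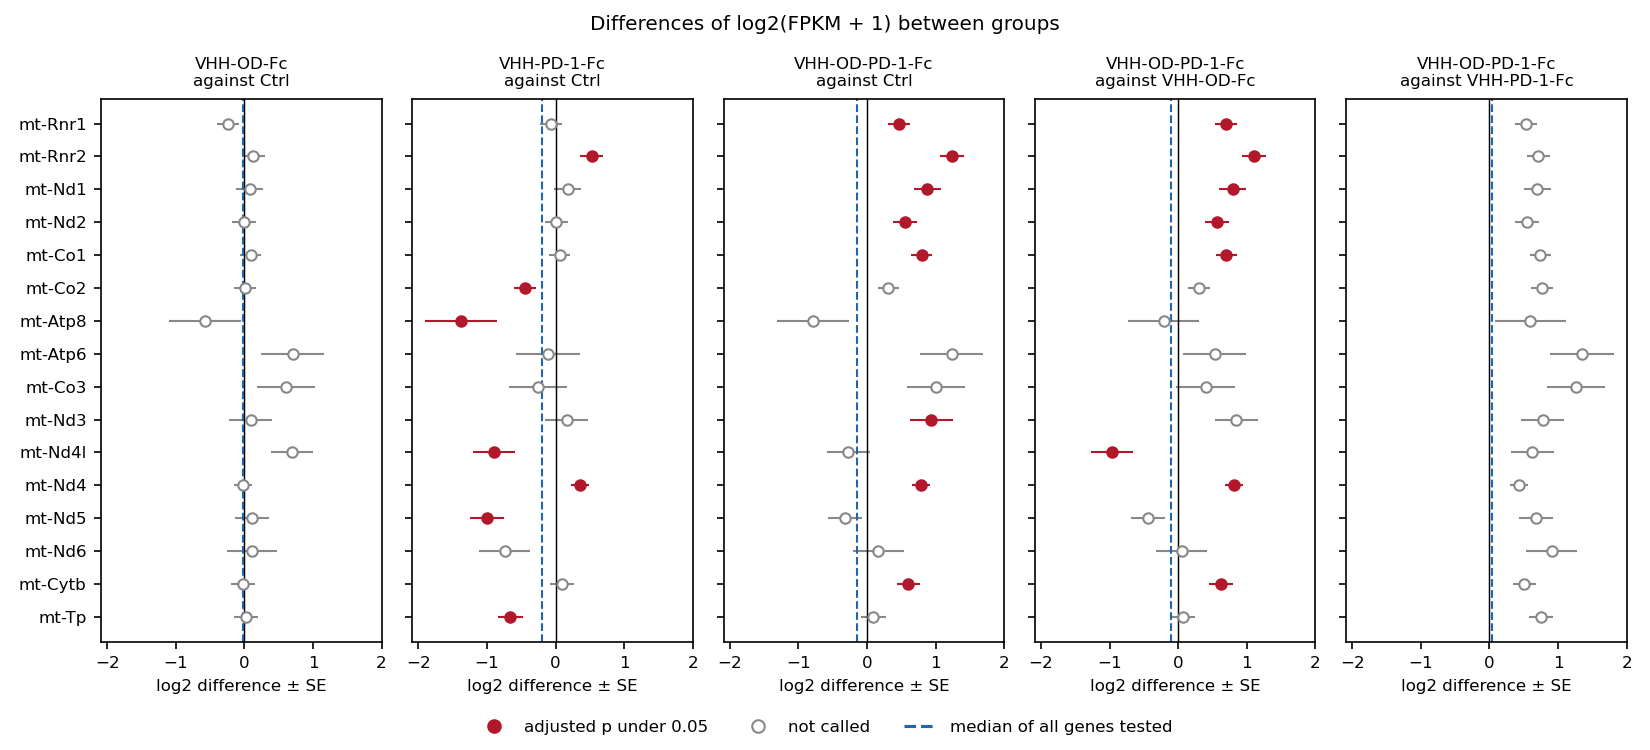
Difference of log2(FPKM + 1) with its standard error for the 16 genes tested, in the order of the mitochondrial genome, 1 panel per comparison with 3 libraries per group. Filled red points passed an adjusted p of 0.05 and the dashed line is the median of all 14306 genes; in VHH-OD-PD-1-Fc against VHH-PD-1-Fc all 16 points lie right of 0 and none is filled.

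The nuclear copies carried values of their own in the table. Gm28437, the copy of mt-Co3, was at 114, 148 and 166 FPKM in VHH-OD-PD-1-Fc libraries, 75.7, 108 and 99.3 in VHH-PD-1-Fc libraries, 40.1, 32.1 and 42.95 in VHH-OD-Fc libraries and 27.2, 43.4 and 31.9 in Ctrl libraries. All 6 libraries with the PD-1 arm lay above all 6 without it, a split that mt-Co3 itself did not show. The log2 difference of Gm28437 was 2.04 (SE 0.20, adjusted p = 8.91e-05) for VHH-OD-PD-1-Fc and 1.45 (SE 0.20, adjusted p = 0.000369) for VHH-PD-1-Fc, both against Ctrl. Gm29216, the copy of part of mt-Co1, was at 76.2, 85.3 and 63.7 FPKM in VHH-OD-PD-1-Fc libraries, 48.8, 42.2 and 63.5 in VHH-PD-1-Fc libraries, 38.6, 25.3 and 27.96 in VHH-OD-Fc libraries and 16.7, 27.6 and 19.3 in Ctrl libraries, with log2 differences from Ctrl of 1.80 (SE 0.22, adjusted p = 0.000225) for VHH-OD-PD-1-Fc and 1.25 (SE 0.22, adjusted p = 0.00112) for VHH-PD-1-Fc. Gm28438, the copy of mt-Nd3, ranged from 7.18 to 106 FPKM, above mt-Nd3 in every library.

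An alternative chosen after the data were seen summed each gene with its copy. VHH-OD-PD-1-Fc against Ctrl then had 11 calls, with 42.2% of all genes called, since the sums of mt-Atp6 (log2 difference 1.28, adjusted p = 0.0063), mt-Co2 (0.54, adjusted p = 0.023) and mt-Co3 (1.34, adjusted p = 0.0105) also passed. The fall of mt-Co2 in VHH-PD-1-Fc against Ctrl was not called on the sum (-0.21, adjusted p = 0.318), nor was that of mt-Nd4l in VHH-OD-PD-1-Fc against VHH-OD-Fc (-0.43, adjusted p = 0.214). The fall of mt-Nd4l in VHH-PD-1-Fc against Ctrl was called on the sum too (-0.854, adjusted p = 0.0205).

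**Figure D5:**
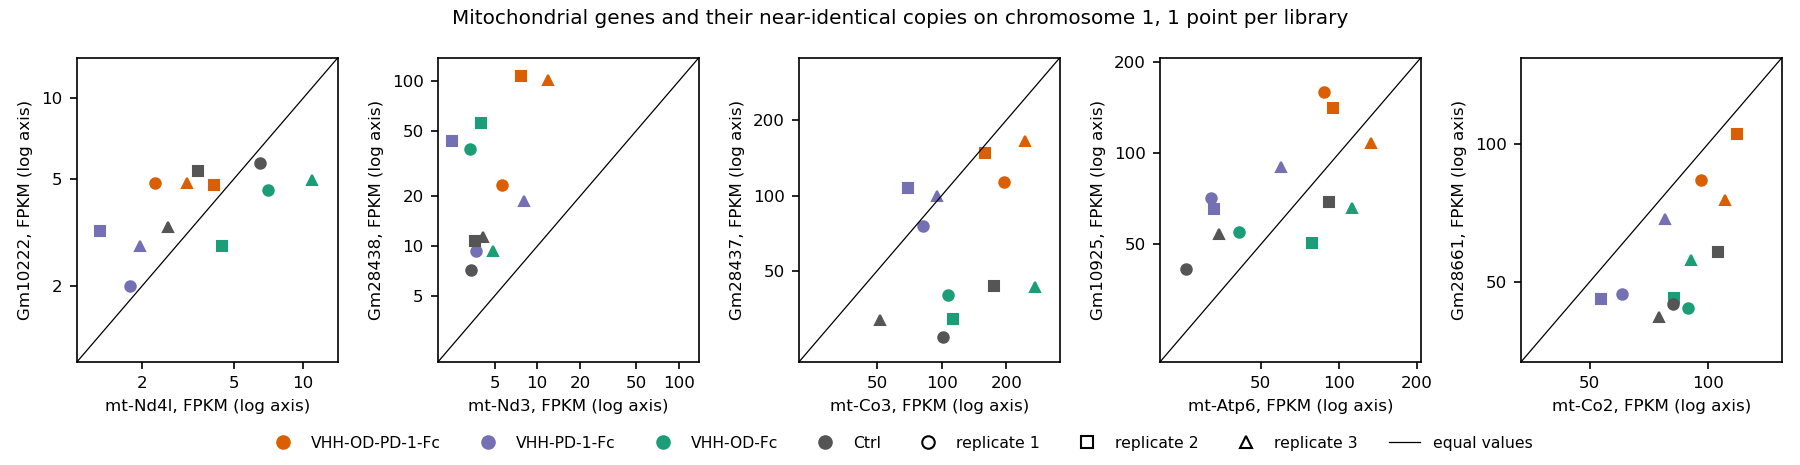
FPKM of 5 mitochondrial genes (x, log axis) and of their copies on chromosome 1 (y, log axis), 1 point per library, colour for the group and shape for the replicate, with a line of equal values. Gm28438 lies above mt-Nd3 in all 12 libraries, and the Gm28437 points of the 6 libraries with the PD-1 arm (75.7 to 166 FPKM) lie above those of the 6 without it (27.2 to 43.4 FPKM).

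The nuclear genes that transcribe, process and translate these RNAs were described from 5 lists, whose counts are read against the 15.1% of all genes that rose and 27.1% that fell in VHH-OD-PD-1-Fc relative to Ctrl, and the 14.6% that rose and 32.3% that fell in VHH-PD-1-Fc relative to Ctrl. Of 18 genes of mitochondrial DNA transcription and replication, none rose and 4 fell in VHH-OD-PD-1-Fc relative to Ctrl, and none rose and 8 fell in VHH-PD-1-Fc against Ctrl. The share that fell was 22.2% in VHH-OD-PD-1-Fc, below that of all genes, and 44.4% in VHH-PD-1-Fc. POLRMT's gene Polrmt averaged 6.31 ± 0.365 FPKM in VHH-OD-PD-1-Fc, 6.88 ± 1.46 in VHH-PD-1-Fc and 9.02 ± 0.557 in Ctrl (SD, n = 3 each), with log2 differences from Ctrl of -0.45 (SE 0.12, adjusted p = 0.0137) for VHH-OD-PD-1-Fc and -0.36 (SE 0.12, adjusted p = 0.0342) for VHH-PD-1-Fc. Polg, the DNA polymerase that copies the mitochondrial genome, fell in both, with log2 differences of -0.43 (SE 0.11, adjusted p = 0.0111) for VHH-OD-PD-1-Fc and -0.72 (SE 0.11, adjusted p = 0.000672) for VHH-PD-1-Fc. Tfam, which packages and activates mitochondrial DNA, averaged 9.95 ± 0.497 FPKM in VHH-OD-PD-1-Fc, 9.88 ± 1.83 in VHH-PD-1-Fc and 9.77 ± 0.282 in Ctrl, with log2 differences from Ctrl of 0.02 (SE 0.11, adjusted p = 0.883) for VHH-OD-PD-1-Fc and 0.00 (SE 0.11, adjusted p = 0.992) for VHH-PD-1-Fc. Mterf1b, of the family of mitochondrial transcription terminators, fell in VHH-OD-PD-1-Fc, with a log2 difference of -0.84 (SE 0.23, adjusted p = 0.0134). Tfb2m and Mterf3, another member of that family, fell in VHH-PD-1-Fc, with -0.55 (SE 0.12, adjusted p = 0.00415) for Tfb2m and -0.68 (SE 0.16, adjusted p = 0.00606) for Mterf3.

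Of 22 genes of mitochondrial RNA processing and stability 21 were tested, of which 4 rose and 6 fell in VHH-OD-PD-1-Fc relative to Ctrl, and 2 rose and 10 fell in VHH-PD-1-Fc against Ctrl. That is 19.0% higher and 28.6% lower in VHH-OD-PD-1-Fc, near the shares of all genes, and 9.52% higher and 47.6% lower in VHH-PD-1-Fc. Hsd17b10 and Trmt10c encode partners in the enzyme that cuts the 5′ ends of the transfer RNAs, and they moved apart. Hsd17b10 averaged 99.5 ± 3.85 FPKM in VHH-OD-PD-1-Fc, 121 ± 13.2 in VHH-PD-1-Fc and 66.2 ± 3.62 in Ctrl, with log2 differences from Ctrl of 0.58 (SE 0.10, adjusted p = 0.00162) for VHH-OD-PD-1-Fc and 0.85 (SE 0.10, adjusted p = 0.0002) for VHH-PD-1-Fc. Trmt10c averaged 4.47 ± 0.48 FPKM in VHH-OD-PD-1-Fc, 4.03 ± 1.52 in VHH-PD-1-Fc and 10.00 ± 1.78 in Ctrl, with -0.999 (SE 0.19, adjusted p = 0.0022) for VHH-OD-PD-1-Fc and -1.16 (SE 0.19, adjusted p = 0.000852) for VHH-PD-1-Fc. Prorp, the nuclease of the same enzyme, rose in VHH-OD-PD-1-Fc by 0.42 (SE 0.13, adjusted p = 0.0205) on the log2 scale.

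Pnpt1, a nuclease that degrades mitochondrial RNA, fell in both, with log2 differences of -0.94 (SE 0.14, adjusted p = 0.000654) for VHH-OD-PD-1-Fc and -1.21 (SE 0.14, adjusted p = 0.000166) for VHH-PD-1-Fc. Lrpprc, which binds and stabilises the messengers, averaged 4.45 ± 0.358 FPKM in VHH-OD-PD-1-Fc, 3.69 ± 0.546 in VHH-PD-1-Fc and 7.07 ± 0.745 in Ctrl, and fell in both, with -0.56 (SE 0.12, adjusted p = 0.00324) for VHH-OD-PD-1-Fc and -0.79 (SE 0.12, adjusted p = 0.0005) for VHH-PD-1-Fc. Ptcd3, of the same protein family and part of the mitochondrial ribosome, fell in VHH-OD-PD-1-Fc, with a log2 difference of -0.93 (SE 0.14, adjusted p = 0.000622), and Ptcd2 rose by 0.58 (SE 0.11, adjusted p = 0.00176) for VHH-OD-PD-1-Fc and 0.30 (SE 0.11, adjusted p = 0.038) for VHH-PD-1-Fc. Mtpap, the poly(A) polymerase, had log2 differences of 0.08 (SE 0.09, adjusted p = 0.479) for VHH-OD-PD-1-Fc and 0.02 (SE 0.09, adjusted p = 0.892) for VHH-PD-1-Fc.

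Of 29 genes that charge or modify mitochondrial transfer RNAs 27 were tested, of which 2 rose and 8 fell in VHH-OD-PD-1-Fc relative to Ctrl, and 3 rose and 13 fell in VHH-PD-1-Fc against Ctrl. The share that fell was 29.6% in VHH-OD-PD-1-Fc, near that of all genes, and 48.1% in VHH-PD-1-Fc, and the share that rose was 7.41% in VHH-OD-PD-1-Fc and 11.1% in VHH-PD-1-Fc, below that of all genes in both. Iars2, which charges the isoleucine transfer RNA, fell, with log2 differences of -0.77 (SE 0.09, adjusted p = 0.000237) for VHH-OD-PD-1-Fc and -0.74 (SE 0.09, adjusted p = 0.000239) for VHH-PD-1-Fc. Aars2, for alanine, fell with -0.66 (SE 0.13, adjusted p = 0.0029) for VHH-OD-PD-1-Fc and -0.74 (SE 0.13, adjusted p = 0.00137) for VHH-PD-1-Fc. Nars2, for asparagine, rose by 0.77 (SE 0.15, adjusted p = 0.00214) for VHH-OD-PD-1-Fc and 0.52 (SE 0.15, adjusted p = 0.0143) for VHH-PD-1-Fc, and Ears2, for glutamate, by 0.40 (SE 0.12, adjusted p = 0.0217) for VHH-OD-PD-1-Fc. Lars2, for leucine, and Fars2, for phenylalanine, rose in VHH-PD-1-Fc, with 1.35 (SE 0.48, adjusted p = 0.0379) for Lars2 and 0.33 (SE 0.11, adjusted p = 0.026) for Fars2. The modifying enzyme Trmu fell, with log2 differences of -0.46 (SE 0.08, adjusted p = 0.00175) for VHH-OD-PD-1-Fc and -0.45 (SE 0.08, adjusted p = 0.00166) for VHH-PD-1-Fc.

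Of 21 genes of ribosomal RNA modification and translation factors, 3 rose and 4 fell in VHH-OD-PD-1-Fc relative to Ctrl, and 3 rose and 8 fell in VHH-PD-1-Fc against Ctrl. In VHH-OD-PD-1-Fc 14.3% of the list rose and 19.0% fell, and in VHH-PD-1-Fc 14.3% rose and 38.1% fell, near or below the shares of all genes except for the somewhat higher 38.1%. Oxa1l, which inserts the new proteins into the inner membrane, rose by 0.46 (SE 0.09, adjusted p = 0.00218) for VHH-OD-PD-1-Fc and 0.49 (SE 0.09, adjusted p = 0.00138) for VHH-PD-1-Fc on the log2 scale, and the recycling factor Mrrf rose by 0.46 (SE 0.12, adjusted p = 0.0118) for VHH-OD-PD-1-Fc and 0.51 (SE 0.12, adjusted p = 0.00616) for VHH-PD-1-Fc. Taco1, a translation activator of the mt-Co1 messenger, fell, with log2 differences of -0.53 (SE 0.10, adjusted p = 0.0022) for VHH-OD-PD-1-Fc and -0.66 (SE 0.10, adjusted p = 0.000596) for VHH-PD-1-Fc. The elongation factor Gfm1 fell with -0.53 (SE 0.14, adjusted p = 0.01) for VHH-OD-PD-1-Fc and -0.76 (SE 0.14, adjusted p = 0.00137) for VHH-PD-1-Fc. The initiation factor Mtif2 fell and the helicase Ddx28 rose in VHH-OD-PD-1-Fc, with -0.48 (SE 0.13, adjusted p = 0.015) for Mtif2 and 0.34 (SE 0.11, adjusted p = 0.0288) for Ddx28. The release factor Mtrf1 fell and the methyltransferase Mrm2 rose in VHH-PD-1-Fc, with -0.72 (SE 0.16, adjusted p = 0.00486) for Mtrf1 and 0.29 (SE 0.10, adjusted p = 0.041) for Mrm2.

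Of 16 regulators of mitochondrial biogenesis 12 were tested, of which none rose and 4 fell in VHH-OD-PD-1-Fc relative to Ctrl, and none rose and 9 fell in VHH-PD-1-Fc against Ctrl. The share that fell was 33.3% in VHH-OD-PD-1-Fc, near the 27.1% of all genes, while 9 of 12 in VHH-PD-1-Fc stood above the 32.3% of all genes. Esrra, a nuclear receptor, fell, with log2 differences of -0.55 (SE 0.09, adjusted p = 0.001) for VHH-OD-PD-1-Fc and -0.50 (SE 0.09, adjusted p = 0.00137) for VHH-PD-1-Fc. The coactivator Pprc1 fell, with -0.60 (SE 0.15, adjusted p = 0.0084) for VHH-OD-PD-1-Fc and -0.75 (SE 0.15, adjusted p = 0.00231) for VHH-PD-1-Fc. Gabpa, a transcription factor of respiratory genes, fell, with -0.65 (SE 0.15, adjusted p = 0.00642) for VHH-OD-PD-1-Fc and -0.66 (SE 0.15, adjusted p = 0.00514) for VHH-PD-1-Fc. Ppargc1a, the best known coactivator of mitochondrial biogenesis, was at most 0.116 FPKM in every library and was not tested. In VHH-OD-PD-1-Fc against VHH-PD-1-Fc and in VHH-OD-Fc against Ctrl, limma called 0 genes of the 5 lists. Over all genes it called 0.839% and 0.0%, so a count of 0 does not set the lists apart. Medians for VHH-OD-PD-1-Fc relative to Ctrl were -0.26 for transcription and replication, -0.20 for RNA processing and -0.16 for transfer RNA enzymes. They were -0.15 for translation factors and -0.17 for biogenesis regulators, against -0.14 over all genes and 0.60 for the 13 messengers. The median of all genes was negative too, so the sign of the list medians is not particular to these lists. Of 16 other genes of mitochondrial mass and matrix 4 rose and 4 fell in VHH-OD-PD-1-Fc relative to Ctrl (25.0% each way, median 0.13).

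Other cell types and signs of RNA quality also differed between the libraries, and their part in the results above was not tested. The 8 neutrophil markers, all above 0 in every library, summed to 1989.6 to 2051 FPKM in VHH-OD-PD-1-Fc, 434 to 1301 in VHH-PD-1-Fc, 654 to 2070 in VHH-OD-Fc and 814 to 1133 in Ctrl. The 8 fibroblast markers, also above 0 in every library, summed to 545 to 549 FPKM in VHH-OD-PD-1-Fc, 222 to 458 in VHH-PD-1-Fc, 679 to 1098 in VHH-OD-Fc and 569 to 805 in Ctrl. Skeletal muscle, a tissue rich in mitochondria, is represented by 15 markers, of which 9 were above 0 in every library and Tnnc2 was at 0 in all 3 VHH-PD-1-Fc libraries. They summed to 255 to 260.0 FPKM in VHH-OD-PD-1-Fc, 50.4 to 63.4 in VHH-PD-1-Fc, 50.4 to 2655 in VHH-OD-Fc and 66.6 to 406 in Ctrl. The highest sum was in VHH-OD-Fc replicate 2, whose mitochondrial rows held 3.96% of summed FPKM, below the other VHH-OD-Fc libraries. The 5 brown fat markers summed to 31.1 FPKM in that library and to at most 8.25 in the other 11.

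The 11 tumour epithelium markers summed to 2725 to 2797 FPKM in VHH-OD-PD-1-Fc, 2111 to 3908 in VHH-PD-1-Fc, 2442 to 2622 in VHH-OD-Fc and 1256 to 3015 in Ctrl, and the 8 macrophage markers to 1325 to 1342 in VHH-OD-PD-1-Fc, 1033 to 2976 in VHH-PD-1-Fc, 754 to 1007 in VHH-OD-Fc and 829 to 1517 in Ctrl. T cell markers, all 9 above 0, summed to 11.4 to 13.1 FPKM in VHH-OD-PD-1-Fc, 8.38 to 22.7 in VHH-PD-1-Fc, 10.3 to 17.3 in VHH-OD-Fc and 19.1 to 39.3 in Ctrl. Adipocyte markers (10 of 12 above 0 in every library) summed to 64.3 to 67.1 FPKM in VHH-OD-PD-1-Fc, 42.3 to 89.3 in VHH-PD-1-Fc, 125 to 375 in VHH-OD-Fc and 61.4 to 167 in Ctrl, and erythroid markers (5 of 6) to 214 to 218 in VHH-OD-PD-1-Fc, 83.2 to 196 in VHH-PD-1-Fc, 146 to 776 in VHH-OD-Fc and 96.8 to 251 in Ctrl. In each of these lists the VHH-OD-PD-1-Fc libraries spanned a narrower range than any other group. The 4 long noncoding RNAs kept in the nucleus (Malat1, Neat1, Meg3 and Kcnq1ot1) summed to 33.6 to 34.4 FPKM in VHH-OD-PD-1-Fc, 29.7 to 58.3 in VHH-PD-1-Fc, 108 to 127 in VHH-OD-Fc and 103 to 118 in Ctrl, so they were lower in all 6 libraries with the PD-1 arm. Of the 3 tested, 2 fell in VHH-OD-PD-1-Fc and 3 in VHH-PD-1-Fc, both against Ctrl. Over all genes 27.1% fell in VHH-OD-PD-1-Fc and 32.3% in VHH-PD-1-Fc. In the table, 3 of 16 genes whose RNA lacks a poly(A) tail had a row, and they summed to 16.03 to 33.5 FPKM in VHH-OD-PD-1-Fc, 43.3 to 115 in VHH-PD-1-Fc, 8.19 to 16.2 in VHH-OD-Fc and 7.30 to 42.9 in Ctrl.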

How the data were processed

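Libraries were made from poly(A)+ RNA taken with oligo(dT) beads, per the labels' protocols, which favours RNAs with a poly(A) tail. The authors deposited 1 table of FPKM values for the 12 libraries. The submitters' processing notes name fastp 0.22.0, HISAT2 2.2.1 and the human build GRCh38, whereas the gene symbols are those of mouse. The tool that gave FPKM, its annotation, the handling of reads with several matches and whether strand was used were not given in the sources used here, so no coordinates are given.

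From these values log2(FPKM + 1) was tested with limma 3.58.1 (R 4.3.3), with a variance trend, over the 14306 of 41009 genes with FPKM of at least 1 in at least 3 libraries. All 12 libraries entered 1 fit with 8 residual degrees of freedom, with 6 comparisons, two-sided tests and a Benjamini-Hochberg adjusted p under 0.05 over all genes tested as the call. Differences on this scale understate the change of low genes. The procedure was tested on simulated data in which each gene had the same spread in every group. The groups here differ in spread, so that test does not cover unequal spread. Low values were whole multiples of what 1 read is worth (94.7% to 96.3% within 0.05 of a whole read, over 12699 genes of known length), which gave the estimated reads. Other scalings, filters and left-out libraries were tried as alternatives. Alternatives that leave the compared groups' values unchanged, such as leaving out a library of another group, can change p-values but not the log2 difference.

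Gene lengths and nuclear copies came from GENCODE M21 (GRCm38) transcripts, matched by symbol for 36319 rows and aligned with blastn 2.17.0. Named were the 13 protein-coding genes, the 2 ribosomal RNAs, all transfer RNA rows, and up to 3 called genes per direction and list of smallest p, with Tfam, Polrmt, Lrpprc and Mtpap always. The members and lists were chosen with earlier results of these data known.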

Additional observations from a re-analysis of the deposited data

How the results depend on the processing

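Counts of called genes moved with the processing, and the cause was not tested. The share called over all genes moved as well. For VHH-OD-PD-1-Fc against Ctrl it was 42.2% in the fit above, 19.5% with no filter and 53.2% after rescaling to TPM. It was 51.5% after rescaling without the mitochondrial rows, 36.6% after quantile normalization and 31.6% to 48.3% with 1 library left out. For VHH-OD-PD-1-Fc against VHH-OD-Fc it was 39.9% in the fit above, 18.3% with no filter and 35.5% after quantile normalization. With 1 library left out it was 29.2% to 45.9% there. For VHH-OD-PD-1-Fc set against Ctrl the count of 8 was 4 with no filter on low values, 4 after rescaling to TPM, 4 after rescaling without the mitochondrial rows, 2 after quantile normalization and 1 with VHH-OD-PD-1-Fc as 1 sample, and 4 to 9 with 1 library left out. In VHH-OD-PD-1-Fc against VHH-OD-Fc the count of 8 was 4 with no filter, 3 after quantile normalization and 1 with VHH-OD-PD-1-Fc as 1 sample, and 6 to 9 with 1 library left out. In VHH-OD-PD-1-Fc against VHH-PD-1-Fc the count of 0 was 2 with a mean FPKM of at least 5, 2 with length and GC trends removed, 2 without the 3 libraries that stand apart (VHH-PD-1-Fc replicate 2, VHH-OD-Fc replicate 2 and Ctrl replicate 1), 1 in a fit of only those 6 libraries, and 0 to 10 with 1 library left out. In VHH-PD-1-Fc against Ctrl the count of 7 was 2 with no filter, 3 with median-of-ratios scaling and 4 with library quality weights. It was 4 without the 3 libraries that stand apart, 1 in a fit of only those 6 libraries, and 3 to 6 with 1 library left out. The difference from additivity gave 0 to 2 calls with 1 library left out, where 0.021% to 0.734% of all genes were called. For VHH-OD-PD-1-Fc against VHH-PD-1-Fc the share over all genes was 0.839% in the fit above and 1.47% with a mean FPKM of at least 5. It was 0.902% with length and GC trends removed, 3.66% without those 3 libraries and 0.322% in the fit of only 6. With 1 library left out it was 0.0629% to 3.76%. For VHH-PD-1-Fc against Ctrl it was 46.9% in the fit above, 16.2% with no filter, 42.1% with median-of-ratios scaling and 35.8% with library quality weights. It was 36.9% without those 3 libraries, 26.7% in the fit of only 6 and 37.4% to 47.9% with 1 library left out. Quantile normalization shows a difference only where a row changes rank, and the highest rows have little room to rise. The median of the 13 protein-coding genes after quantile normalization was 0.15 for VHH-OD-PD-1-Fc set against Ctrl and 0.13 set against VHH-OD-Fc. It was -0.49 for VHH-PD-1-Fc set against Ctrl, where mt-Co1 (-0.45), mt-Nd1 (-0.49), mt-Nd2 (-0.595) and mt-Nd4 (-0.17) turned negative. In VHH-OD-PD-1-Fc against VHH-OD-Fc the median was 0.31 after rescaling to TPM, 0.33 after rescaling without the mitochondrial rows and 0.32 to 0.62 with 1 library left out. The replicate numbers did not pair the samples, since 1 of 18 same-number correlations of deviations was over 0.1. A fit with the replicate number as a block called 3 genes in VHH-PD-1-Fc against Ctrl and 9 for VHH-OD-PD-1-Fc set against Ctrl. It called 9 in VHH-OD-PD-1-Fc against VHH-OD-Fc and 0 in VHH-OD-PD-1-Fc against VHH-PD-1-Fc. Over all genes that fit called 44.6%, 40.2%, 38.1% and 0.196% in these comparisons, in that order. Depth limits mt-Atp8 (5 to 110.0 estimated reads per library), mt-Nd4l and mt-Nd3.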
